A study of Mus musculus with 4 samples.

Results

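Complex cassette exons are internal exons whose splicing is read from more than one simple choice of include or skip, among them exons that stand next to a rival and are used one or the other. The deposited table of splicing events marks such rows with the classes C1, C2 and C3, which the table does not define. Rows of these classes were kept if inclusion and exclusion reads added to 10 or more in each of the 4 libraries and if, summed over libraries, neither form had fewer than 5. That left 1763 exons in 962 genes, of 14830 rows of these classes and 124326 events in the table. There were 533 exons of class C1, 654 of C2 and 576 of C3, and 446 genes held 2 or more of them.

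The exons were compared between the remote area of infarcted hearts of 2 mice and the hearts of 2 uninjured mice. All mice were C57BL/6. The infarcts followed permanent occlusion of the LAD, a main coronary artery, by ligature, and the remote tissue, away from the infarct, was taken at 7 days. Each library was made from polyadenylated RNA and read as single-end reads of 50 bases. The question was which exons are used differently in surviving myocardium after an infarct. The p-values below measure the spread between these 2 mice a group and no more. Whole pieces of heart were read, in which fewer cells of a type and less RNA per cell cannot be told apart.

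A cassette exon is joined to both neighbours or left out of the mRNA by the spliceosome. In a mutually exclusive pair, each mRNA takes the upstream or the downstream exon and seldom both, so a protein domain is swapped with little else altered. Such pairs are often relics of an exon duplication, and several of the best studied ones in muscle, in tropomyosin, alpha-actinin, MEF2, pyruvate kinase and the mitochondrial phosphate carrier, separate a muscle form from a form of other cells. Inclusion level here is the percentage of an exon's junction reads that include it, and a difference is given in points, as the mean of the infarcted minus the mean of the uninjured hearts.

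Pairs were described by structure and not by their difference between groups. A total of 610 pairs of these exons in one gene did not overlap and shared an upstream and a downstream flanking splice site, a definition chosen after the data had been seen. For 589 of them both exons were found in GENCODE M21, by exon length and the lengths of both flanking introns. Both exons stood together in at least 1 annotated transcript in 545 pairs and never did so in 44 pairs in 39 genes. In 19 of the 44 pairs, in 18 genes, the inclusion levels of the 2 exons also added up to between 85% and 115% in every library, as they would when each mRNA takes one of them. Of the 545 pairs found together in a transcript, 7 added up in this way.

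The exon sequences of 6 pairs are shown: 5 whose exons differed between the groups in opposite directions, described below, and that of Rab6, an equal-length pair whose groups overlapped. They are from GENCODE M21 transcripts on GRCm38, all from coding exons on the strand of the gene, with the 5′ exon of each pair first. Capitals mark the bases that differ from the partner exon, position by position where the lengths are equal and in a global alignment where they are not.
Slc25a3 5′ exon, chr10:91122207-91122331: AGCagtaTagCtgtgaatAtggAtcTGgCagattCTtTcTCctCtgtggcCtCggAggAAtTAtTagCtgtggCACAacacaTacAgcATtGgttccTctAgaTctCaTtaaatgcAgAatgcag
Slc25a3 3′ exon, chr10:91121922-91122043: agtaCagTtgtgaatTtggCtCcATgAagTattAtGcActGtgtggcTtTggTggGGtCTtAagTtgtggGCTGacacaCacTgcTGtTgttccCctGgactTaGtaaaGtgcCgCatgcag
Pkm 5′ exon, chr9:59675029-59675195: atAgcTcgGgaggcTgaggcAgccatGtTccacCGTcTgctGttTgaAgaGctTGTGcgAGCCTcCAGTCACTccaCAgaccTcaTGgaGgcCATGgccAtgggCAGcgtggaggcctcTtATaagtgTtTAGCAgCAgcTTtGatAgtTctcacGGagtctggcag
Pkm 3′ exon, chr9:59675568-59675734: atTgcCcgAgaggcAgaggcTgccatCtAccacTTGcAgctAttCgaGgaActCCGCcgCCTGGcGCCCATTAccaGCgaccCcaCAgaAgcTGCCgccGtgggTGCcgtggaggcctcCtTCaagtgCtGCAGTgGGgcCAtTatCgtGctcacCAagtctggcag
Actn1 5′ exon, chr12:80170686-80170766: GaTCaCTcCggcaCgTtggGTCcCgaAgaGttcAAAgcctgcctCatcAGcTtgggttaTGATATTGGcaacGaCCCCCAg
Actn1 3′ exon, chr12:80170183-80170248: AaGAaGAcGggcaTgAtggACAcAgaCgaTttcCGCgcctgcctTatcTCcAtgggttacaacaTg
H2afy 5′ exon, chr13:56089758-56089857: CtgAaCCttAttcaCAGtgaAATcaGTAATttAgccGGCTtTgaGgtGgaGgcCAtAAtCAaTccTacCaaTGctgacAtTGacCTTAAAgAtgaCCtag
H2afy 3′ exon, chr13:56088252-56088342: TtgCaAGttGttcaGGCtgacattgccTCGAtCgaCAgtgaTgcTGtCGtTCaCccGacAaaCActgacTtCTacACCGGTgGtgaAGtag
Tpm2 5′ exon, chr4:43519003-43519078: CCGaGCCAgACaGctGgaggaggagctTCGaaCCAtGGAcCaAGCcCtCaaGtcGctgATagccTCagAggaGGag
Tpm2 3′ exon, chr4:43518644-43518719: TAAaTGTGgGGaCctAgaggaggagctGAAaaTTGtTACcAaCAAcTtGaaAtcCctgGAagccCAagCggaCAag
Rab6 5′ exon, chr7:100629666-100629771: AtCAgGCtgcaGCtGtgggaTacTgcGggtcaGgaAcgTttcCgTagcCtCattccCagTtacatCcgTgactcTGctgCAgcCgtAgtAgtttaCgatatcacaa
Rab6 3′ exon, chr7:100629838-100629943: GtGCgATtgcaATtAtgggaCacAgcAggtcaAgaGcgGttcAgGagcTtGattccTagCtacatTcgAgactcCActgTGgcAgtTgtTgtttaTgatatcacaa

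Equal length was common among pairs that no transcript joins. It held for 9 of the 44 pairs, and for 8 of the 19 whose inclusion levels added up, against 14 of the 545 pairs joined in a transcript. The median identity of equal-length exons was 61.6% over the 44 pairs and 38.8% over the 545. The 2 Rab6 exons, of a small GTPase of Golgi traffic, were 71.7% identical over 106 bases. The 2 annotated Pkm exons were 61.7% identical over 167 bases, but that pair was not among the 44. Its downstream exon, listed at 475 nt, was not matched by exon and intron lengths. The pair of Slc25a3 was 65.6% identical over 128 aligned positions. These are descriptions of exons that overlap in gene and source, and no test was made of them.

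The deposited coordinates below are on mm9, the build named in the submitters' processing notes. Over all 1763 exons the median length was 103 nt, 46.7% had a length divisible by 3, and 1303 of the 1577 matched in GENCODE M21 lay in coding sequence. The median of the mean inclusion level was 85.9%, and 46.2% of the exons lay between 10% and 90%. Among the 3590 simple cassette exons tested, of class S, the median inclusion level was 91.9% and 35.5% lay in that range. The complex exons also had fewer reads, with a median of 38 in the shallowest library against 47 for the simple ones.

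Summed RNA levels of several cell type marker lists differed between the groups, which does not by itself measure cell numbers. The 6 fibroblast markers summed to 6637 and 5552 CPM in infarcted hearts, against 767 and 733 CPM in uninjured hearts. Of these markers 4 were called higher. CPM are gene counts scaled to library totals after TMM adjustment. The 6 macrophage markers summed to 306 and 311 CPM in infarcted hearts, against 105 and 91.2 CPM in uninjured hearts, with all 6 called higher. The 5 ventricular cardiomyocyte markers summed to 27876 and 24835 CPM in infarcted hearts, against 41024 and 52247 CPM in uninjured hearts, with 3 called lower. Of the other lists, 4 smooth muscle markers summed to 285 and 530.4 CPM in infarcted hearts, against 171 and 239 CPM in uninjured hearts, and 5 endothelial markers to 929 and 751 CPM in infarcted hearts, against 740.2 and 698 CPM in uninjured hearts. Of 4 atrial markers 3 passed the filter, and they summed to 295 and 1948 CPM in infarcted hearts, against 88.6 and 49.4 CPM in uninjured hearts. The atrial list was Myl4, Myl7, Sln and Nppa. Infarcted replicate 2 stood apart from the other libraries in the atrial sum, and whether it held atrial tissue was not tested. The part of cell make-up in the exon differences below was not tested. Gene counts summed to between 35715115 and 70885393 a library, and the median complex exon had 48 to 66 reads a library.

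Differences within a group were close in size to those between groups. The median absolute difference of a complex exon was 4.38 points between the infarcted libraries and 3.39 points between the uninjured libraries, and 3.45 points between the group means. A single infarcted and a single uninjured library differed by a median of 5.13 points. Inclusion odds were compared between groups with edgeR's quasi-likelihood test, as the change of inclusion over exclusion reads with group, over 8158 exons and splice sites, with Benjamini-Hochberg adjustment. No complex exon passed an adjusted p of 0.05, and 0% of all events did. The lowest adjusted p was 0.737. At an unadjusted p below 0.05 stood 170 complex exons, 67 higher and 103 lower in infarcted hearts, which is 9.64% of them beside a background of 6.66% of all events tested. Limma on the logit called 0 complex exons, and so did DESeq2's likelihood-ratio test. Limma with weights for read depth called 2, both in Pkm2, and these were the only calls among all events (0.0245%). At an unadjusted p below 0.05 weighted limma held 234 of the 1763 complex exons, beside 752 of all 8158 events (9.22%). All differences below are therefore values in 4 libraries, and none is called by the edgeR test.

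By size alone, 740 of the 1763 exons (42.0%) had groups that did not overlap, against a background of 38.5% of all events. Of these, 131 exons were at least 10 points higher in infarcted hearts, against a background of 5.27%, and 159 were at least 10 points lower, against a background of 6.64%. Together these were 16.4% of the complex exons, where all events stood at 11.9%. Differences of this size were mostly in thinly covered exons. They made up 25.2% of the 778 exons with a mean under 50 reads a library, 10.4% of the 750 exons with 50 to 200 reads, and 6.81% of the 235 exons above that. Among 333 exons with at least 100 reads in each library, 4 were higher and 15 lower by 10 points without overlap. Exons just inside the read threshold, with 10 or 11 reads in the shallowest library, had a median absolute difference of 8.22 points (107 exons), and those just outside, with 8 or 9 reads, of 7.66 points (255 exons). Past 10 points without overlap were 29.9% of those just inside and 18.04% of those just outside.

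**Figure D1:**
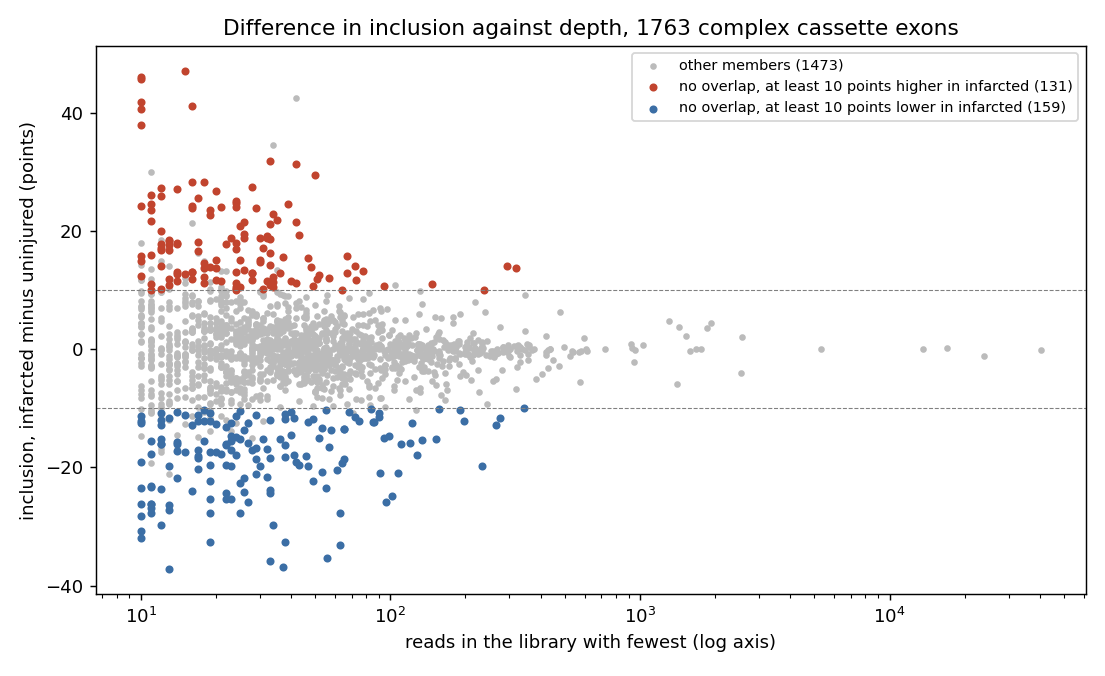
Difference in inclusion level (infarcted minus uninjured, points) against the reads of the shallowest library (log axis) for each complex cassette exon. Red and blue points mark the 131 exons higher and the 159 exons lower by at least 10 points without overlap of the groups, and the wide differences sit at low read numbers.

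Pyruvate kinase had the smallest p among complex exons. The enzyme makes pyruvate at the end of glycolysis, and the Pkm gene, listed as Pkm2, joins either its exon 9, the form of adult muscle, or the next exon, the form of embryonic and dividing cells. The downstream exon, chr9:59523375-59523849, was included at 9.89% and 10.1% in infarcted hearts, against 1.07% and 0.57% in uninjured hearts. The table gives it a length of 475 nt, while the annotated exon that begins at the same distance from exon 9 ends 308 nt earlier, at 167 nt. Its 95% Wilson intervals were 7.51% to 12.9% and 7.34% to 13.7% in infarcted libraries, and 0.552% to 2.33% and 0.252% to 1.19% in uninjured libraries. The infarcted and the uninjured values were far apart. Its log2 odds ratio was 3.78 ± 0.51 (SE), with an unadjusted p of 0.000166.

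The muscle exon of the same gene, chr9:59522836-59523002, differed the other way, by -2.2 points beside 9.16 points for the downstream exon. Its inclusion was 97.7% and 97.5% in infarcted hearts, against 99.8% and 99.9% in uninjured hearts. The log2 odds ratio was -3.81 ± 0.53. The muscle exon had 946 to 3127 reads a library and the downstream exon 347 to 1093. Together the 2 levels exceeded the whole, by more in infarcted than in uninjured libraries. The downstream level can therefore not be read as that form's share. With limma weighted for read depth the adjusted p was 0.0363 for the downstream and 0.0495 for the muscle exon, the only 2 of 8158 events called. These calls needed all 4 libraries, since leaving out any one gave an adjusted p between 0.154 and 0.798. The level of the whole gene was 897 and 756 CPM in infarcted hearts, against 941 and 1279 CPM in uninjured hearts, and it was not called by edgeR (adjusted p = 0.201).

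Slc25a3, the carrier that brings phosphate into mitochondria, has a heart and skeletal muscle exon followed by the exon of other tissues. The muscle exon, chr10:90584952-90585076, was included at 94.7% and 94.4% in infarcted hearts, against 98.5% and 98.6% in uninjured hearts. The other exon, chr10:90584667-90584788, had 5.19% and 6.57% in infarcted hearts, against 1.45% and 1.35% in uninjured hearts. Between 1929 and 7569 reads stood behind each of these values, and neither exon's groups overlapped. The log2 odds ratio was -2.01 ± 0.33 for the muscle and 2.13 ± 0.36 for the other exon, and their unadjusted p of 0.000503 and 0.000561 came next after Pkm2. At gene level Slc25a3 fell by 0.91 ± 0.24 on the log2 scale in infarcted hearts (edgeR, adjusted p = 0.0104), a call that was lost without infarcted replicate 2 (0.0607) or uninjured replicate 2 (0.0794). The ventricular cardiomyocyte sum given above was lower in the same hearts, and its part in this was not tested.

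Actn1, a cross-linker of actin filaments, carries an exon of the non-muscle form and one of the smooth muscle form in its calcium-binding region. The non-muscle exon of 81 nt, chr12:81271673-81271753, was included at 50.0% and 37.9% in infarcted hearts, against 23.5% and 21.4% in uninjured hearts. The smooth muscle exon of 66 nt, chr12:81271170-81271235, had 45.1% and 57.2% in infarcted hearts, against 71.0% and 72.8% in uninjured hearts. Infarcted replicate 2 and both uninjured mice used the smooth muscle exon more than the other, and infarcted replicate 1 did not. The differences were 21.5 and -20.7 points with non-overlapping groups, and the unadjusted p was 0.037 for the non-muscle and 0.0361 for the smooth muscle exon. The gene itself rose by 2.47 ± 0.20 on the log2 scale (edgeR, adjusted p = 3.43e-06).

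H2afy encodes macroH2A1, a histone variant whose 2 forms differ by a pair of exons in the macro domain. The form made with the downstream exon is known to bind ADP-ribose metabolites. That exon, chr13:56189617-56189703, which the table gives 87 nt where the annotated exon has 91, was included at 73.7% and 73.0% in infarcted hearts, against 95.3% and 90.1% in uninjured hearts. The upstream exon, chr13:56191119-56191218, had 34.2% and 31.3% in infarcted hearts, against 11.9% and 11.4% in uninjured hearts. Mice of a group agreed closely and the groups were apart, with log2 odds ratios of -2.16 ± 0.60 and 1.81 ± 0.61. The level of the gene was 28.1 and 25.4 CPM in infarcted hearts, against 26.0 and 30.6 CPM in uninjured hearts, and was not called (adjusted p = 0.778).

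Tropomyosins, the coiled coils along the actin filament, have a pair of 76-nt exons in both Tpm1 and Tpm2. In Tpm2 the 5′ exon, chr4:43531875-43531950, was included at 80.6% and 85.1% in infarcted hearts, against 95.7% and 91.5% in uninjured hearts. Its 3′ partner, chr4:43531516-43531591, had 26.7% and 24.8% in infarcted hearts, against 17.2% and 10.7% in uninjured hearts. So in Tpm2 the downstream exon was the one higher in infarcted hearts. In Tpm1 the difference ran the other way and lay at the edge of the scale. Its rare 5′ exon, chr9:66880273-66880348, had 0.14% and 0.1% in infarcted hearts, against 0.04% and 0.02% in uninjured hearts, out of 13649 to 44879 reads. The 3′ exon, chr9:66879758-66879833, had 99.85% and 99.92% in infarcted hearts, against 99.96% and 99.98% in uninjured hearts. In infarcted hearts all 4 Tpm1 exons lay away from the uninjured level in both mice, at unadjusted p of 0.00123 to 0.00517. The largest of these differences was that of the 79-nt exon, with 98.3% and 98.2% in infarcted hearts, against 99.3% and 99.5% in uninjured hearts.

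The MEF2 factors, which drive muscle genes, choose between exons of similar length that code for the part after their DNA-binding domain. The 132-nt exon of Mef2a, chr7:74413155-74413286, was included at 42.3% and 54.5% in infarcted hearts, against 32.5% and 32.7% in uninjured hearts. Its partner of 138 nt, chr7:74412953-74413090, had 60.2% and 52.6% in infarcted hearts, against 64.2% and 75.7% in uninjured hearts. The groups did not overlap, but the infarcted mice were far from each other in the first exon, and the unadjusted p was 0.0903 for the 132-nt and 0.176 for the 138-nt exon. In Mef2d the 138-nt exon had 47.6% and 63.2% in infarcted hearts, against 42.4% and 47.0% in uninjured hearts, a narrow separation. The partner exon in Mef2d had 47.7% and 34.3% in infarcted hearts, against 54.2% and 44.3% in uninjured hearts, with overlap.

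**Figure D2:**
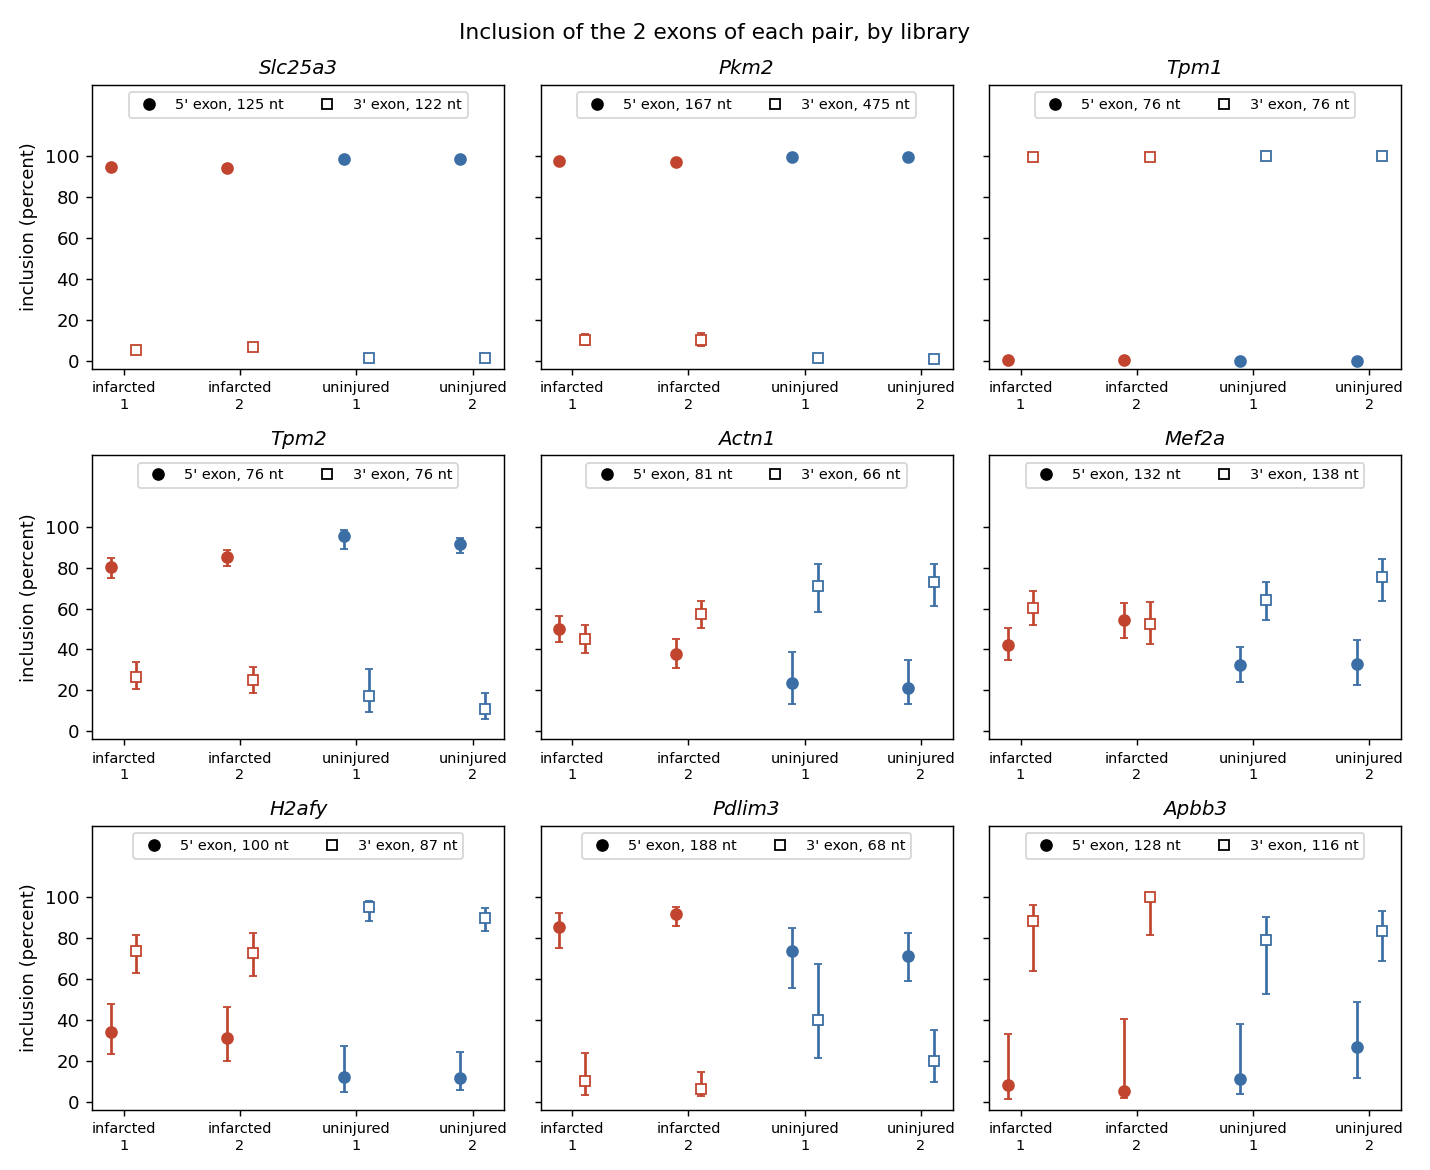
Inclusion level (percent) of both exons of 9 pairs in each library, with 95% Wilson intervals, which cover counting error only. Filled circles are the 5′ exon and open squares the 3′ exon, with infarcted libraries in red and uninjured in blue. The 2 exons of Apbb3 adjoin without an intron. Pairs other than that of Pkm2 were taken from the 13 of 44 in which neither exon's groups overlapped, so their separation follows from the choice. The 2 exons of each pair shown differ in opposite directions, by under 1 point in Tpm1 and by about 20 points in Actn1 and H2afy.

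Neighbouring exons that differed in opposite directions were also counted without regard to annotation. Of 800 pairs of consecutive complex exons in 445 genes, 12 pairs in 11 genes had one exon at least 10 points higher and the other at least 10 points lower in infarcted hearts, both without overlap. In 68 pairs both exons differed by as much in the same direction, 31 higher and 37 lower. The 12 were in Actn1, H2afy, Pdlim3, Mef2a, Tpm2, Ubr2, Apbb3, Rbfox2, Tmem87a and Ppp1r12a, with 2 in Pde7a. Of these, 9 shared flanking sites, as did 38 of the 68. The 2 exons of a pair share junction reads in part, so a difference in one is not independent of that in the other. With at least 20 reads a library 6 of the opposite pairs were left, and at a threshold of 20 points 1 was left. Without uninjured replicate 1 the count was 19, and without uninjured replicate 2 it was 21. With 1 library in a group, lack of overlap is a looser condition, so these 2 counts cannot be set against the 12.

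Pdlim3, a PDZ and LIM protein of the Z-disc, has a pair of exons of unequal length. Its 188-nt exon, chr8:46993823-46994010, was included at 85.5% and 92.1% in infarcted hearts, against 73.7% and 71.4% in uninjured hearts. The 68-nt exon, chr8:46994373-46994440, had 10% and 6.38% in infarcted hearts, against 40% and 20% in uninjured hearts. The uninjured mice differed widely in the short exon, which had 14 and 36 reads there. Rbfox2, a splicing factor of muscle and nerve, used its 43-nt exon at 60.8% and 54.0% in infarcted hearts, against 77.6% and 74.4% in uninjured hearts. The neighbouring 40-nt exon had 31.2% and 20.96% in infarcted hearts, against 10.8% and 20.2% in uninjured hearts, groups that all but touch. For that exon the unadjusted p was 0.233, and for the 43-nt exon 0.0469.

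The remaining opposite pairs had few reads, or mice of a group that were far apart. Ppp1r12a, the subunit that targets myosin phosphatase, had its 168-nt exon at 76.2% and 93.0% in infarcted hearts, against 95.1% and 95.3% in uninjured hearts. Its next exon, of 171 nt, had 88.1% and 74.5% in infarcted hearts, against 65.5% and 63.3% in uninjured hearts. For the 168-nt exon infarcted replicate 2 lay close to the uninjured mice. Ubr2, an E3 ubiquitin ligase, has a pair of 99-nt exons. Their inclusion was 23.6% and 12.7% for the 5′ exon in infarcted hearts, against 36.2% and 25.8% in uninjured hearts, with 12 to 18 reads. The 3′ exon of Ubr2 had 85.9% and 100% in infarcted hearts, against 79.1% and 70.3% in uninjured hearts. All 4 values of each Ubr2 exon came from 26 reads or fewer.

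Pde7a, a cAMP phosphodiesterase, had its 132-nt exon at 89.0% and 72.0% in infarcted hearts, against 100% and 93.1% in uninjured hearts, and lay at 12 reads in infarcted replicate 2. The downstream exon of Pde7a, of 158 nt, had 20.3% and 41.7% in infarcted hearts, against 16.5% and 11.3% in uninjured hearts. The upstream one, of 152 nt, had 73.9% and 84.6% in infarcted hearts, against 66.7% and 71.4% in uninjured hearts. The middle exon was lower and both of its neighbours were higher in infarcted hearts. Tmem87a, of a Golgi membrane protein, had its 114-nt exon at 88.7% and 92.1% in infarcted hearts, against 69.2% and 55.0% in uninjured hearts. Its 54-nt exon had 91.5% and 69.8% in infarcted hearts, against 91.8% and 100% in uninjured hearts, where infarcted replicate 1 all but met the uninjured mice. In Apbb3, an adaptor of the amyloid precursor protein, the 128-nt exon had 8.33% and 5.26% in infarcted hearts, against 11.1% and 26.7% in uninjured hearts. The 116-nt exon of Apbb3, which begins at the next base, had 88.3% and 100% in infarcted hearts, against 78.9% and 83.3% in uninjured hearts. No intron lies between these 2 exons of Apbb3, and the 128-nt exon was found in non-coding transcripts only. The lowest unadjusted p among the exons of Ubr2, Pde7a and Apbb3 was 0.118, and that of the 114-nt Tmem87a exon was 0.0357.

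Several pairs did not separate the groups. The 2 exon pairs of Actn4, the other non-muscle alpha-actinin, had overlapping groups in all 4 exons. The 81-nt exon of Actn4 had 84.7% and 70.4% in infarcted hearts, against 73.8% and 74.4% in uninjured hearts. In Rab6, whose 2 exons are the most alike of those printed, the 5′ exon had 19.3% and 16.7% in infarcted hearts, against 22.1% and 15.6% in uninjured hearts. The 3′ exon of Rab6 had 72.9% and 76.2% in infarcted hearts, against 68.7% and 79.6% in uninjured hearts. Its unadjusted p was 0.979, and the infarcted values lay inside the uninjured ones in both exons. In Dnm2, a GTPase that pinches off vesicles, the 5′ exon had 80.2% and 67.7% in infarcted hearts, against 52.9% and 76.0% in uninjured hearts. In Itga7, the laminin receptor subunit of muscle, the 3′ exon had 75.0% and 78.8% in infarcted hearts, against 70.6% and 80.2% in uninjured hearts. Mapk8, a stress-activated kinase, had its 3′ exon at 89.1% and 92.0% in infarcted hearts, against 85.3% and 100% in uninjured hearts. Of Ogdh, an enzyme of the citric acid cycle, the 3′ exon was at 99.8% and 99.9% in infarcted hearts, against 99.7% and 99.9% in uninjured hearts. In all of these genes the groups overlapped in both exons. P4ha1, a subunit of the enzyme that hydroxylates collagen prolines, had its 5′ exon at 52.4% and 66.1% in infarcted hearts, against 49.4% and 54.6% in uninjured hearts. Its 3′ exon had 46.4% and 41.3% in infarcted hearts, against 56.6% and 50.0% in uninjured hearts, without overlap but with an unadjusted p of 0.296, while the groups of the 5′ exon overlapped.

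Without overlap of their groups stood 38.5% of all events tested, taken singly. Over the 44 pairs that no transcript joins, both exons were without overlap in 13, and in 10 of the 13 they differed in opposite directions. Of the 545 joined pairs, 207 had both exons without overlap, and in 4 of these in opposite directions. Ttn gave 136 of the 545 pairs and Lrrfip1 46, so the joined pairs repeat a few exons many times. These shares describe how the pairs are built and were not tested.

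**Figure D3:**
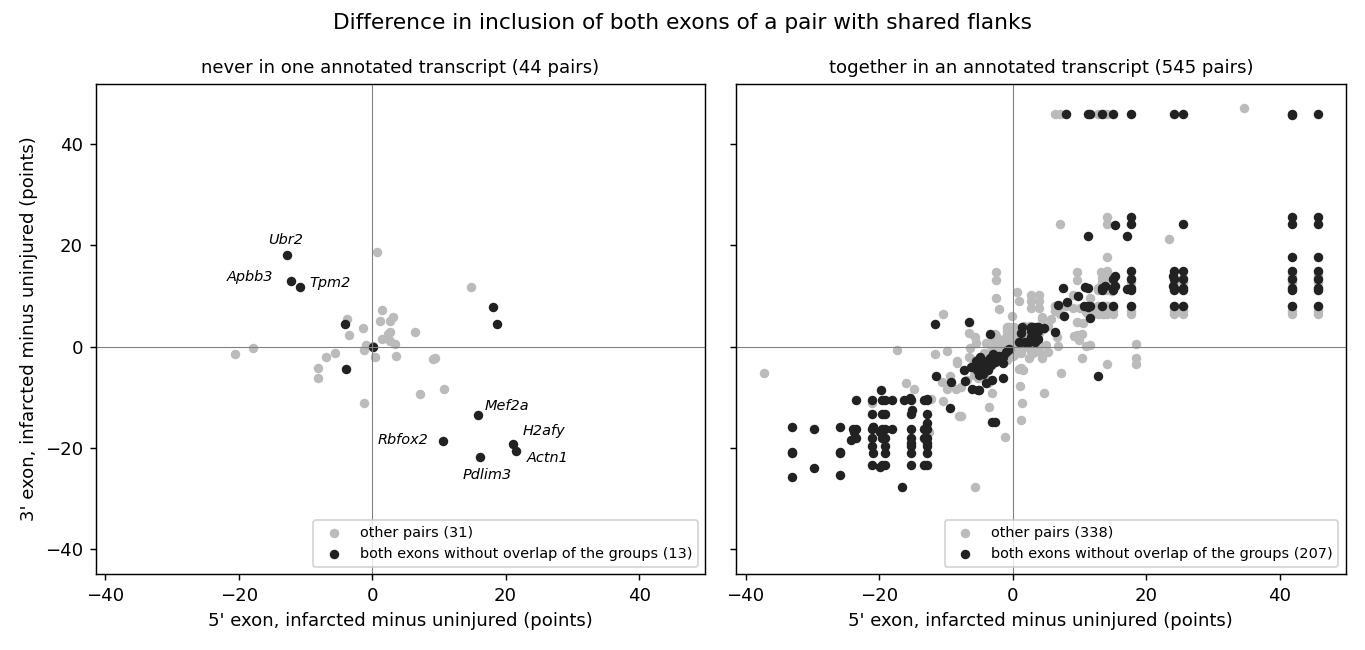
Difference in inclusion (infarcted minus uninjured, points) of the 3′ exon against that of the 5′ exon, for 44 pairs that share no annotated transcript and 545 pairs that do. Black points are pairs in which neither exon's groups overlapped (13 and 207); those of the left panel lie mainly in the upper left and lower right, those of the right panel along the rising diagonal, where Ttn and Lrrfip1 repeat.

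Away from pairs, the exons higher in infarcted hearts with the smallest p, among those past 10 points without overlap, included exons of Tmpo, Kctd17 and Atp2c1. In Tmpo, which codes for lamina-associated proteins of the nuclear envelope, the 120-nt exon, chr10:90616023-90616142, had 65.7% and 63.9% in infarcted hearts, against 37.7% and 29.3% in uninjured hearts. The 96-nt exon next to it in Tmpo had 82.0% and 100% in infarcted hearts, against 66.8% and 56.4% in uninjured hearts. The groups did not come near each other in either exon.

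Kctd17, an adaptor of cullin ubiquitin ligases, had its 63-nt exon at 92.0% and 90.5% in infarcted hearts, against 68.9% and 50.0% in uninjured hearts. The 183-nt exon of Atp2c1, the calcium and manganese pump of the Golgi, had 63.0% and 68.2% in infarcted hearts, against 25.4% and 23.8% in uninjured hearts. Fmnl2, a formin that elongates actin filaments, included its 47-nt exon at 70.0% and 61.3% in infarcted hearts, against 16.7% and 33.3% in uninjured hearts. The uninjured value of Fmnl2 came from 14 and 10 reads. The 117-nt exon of Fam149b had 93.9% and 93.3% in infarcted hearts, against 73.6% and 65.8% in uninjured hearts. Gnptab, which starts the mannose 6-phosphate tag of lysosomal enzymes, had a 42-nt exon at 100% in both infarcted hearts, against 89.5% and 75.0% in uninjured hearts. The Gnptab exon was matched in GENCODE M21 only at another boundary listed for it. Pkp4, a plakophilin, had its 137-nt exon at 100% in both infarcted hearts, against 78.9% and 95.2% in uninjured hearts. Unadjusted p was 0.00933 in Fam149b, 0.0136 in Pkp4 and 0.0156 in Gnptab.

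Another 4 of these exons are listed under Cenpp, a centromere gene, and carry a doubt about the gene. Their lengths and distances are those of 4 exons of Aspn, a matrix proteoglycan gene on the other strand, in GENCODE M21. The 214-nt exon, chr13:49652616-49652829, had 98.7% and 98.8% in infarcted hearts, against 93.8% and 80.2% in uninjured hearts. Its reads were 910 and 345 in infarcted libraries, against 156 and 73 in uninjured libraries. At gene level Cenpp had 1.40 and 1.19 CPM in infarcted hearts, against 1.84 and 1.80 CPM in uninjured hearts, while Aspn had 149.5 and 75.1 CPM in infarcted hearts, against 28.4 and 13.7 CPM in uninjured hearts. Aspn was called higher by edgeR (log2 fold change 2.42 ± 0.57, adjusted p = 0.0461; 0.0932 without uninjured replicate 2). No label states that the strand was kept. In infarcted replicate 1 the 214-nt exon had 910 reads, more than Cenpp's 1.40 CPM comes to in that library's 46232326 gene counts. Which gene the reads came from was not tested.

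Among the 12 exons lower in infarcted hearts with the smallest p, Snap23, a SNARE protein of membrane fusion, had the largest difference. Its 33-nt exon, chr2:120416399-120416431, was included at 35.4% and 25.7% in infarcted hearts, against 67.3% and 64.5% in uninjured hearts. Clta, a clathrin light chain, had its 36-nt exon, chr4:44044272-44044307, at 16.7% and 9.68% in infarcted hearts, against 30.7% and 35.4% in uninjured hearts. Both were separated in every mouse, and Clta rested on 234 to 386 reads a library. The log2 odds ratios were -2.14 ± 0.54 in Snap23 and -1.70 ± 0.46 in Clta.

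Phldb1 had its 141-nt exon at 32.1% and 26.0% in infarcted hearts, against 60.0% and 53.4% in uninjured hearts. In Fblim1, which ties filamin to cell adhesions, a 143-nt exon of the untranslated region had 87.1% and 79.3% in infarcted hearts, against 98.2% and 98.2% in uninjured hearts. Fxr1, an RNA-binding protein with a muscle form, had its 74-nt exon at 84.1% and 76.4% in infarcted hearts, against 91.5% and 92.3% in uninjured hearts. This exon was matched in GENCODE M21 only at another boundary listed for it, not at the 74 nt given. Lrrfip2, a binding partner of the flightless protein, had 2 neighbouring exons lower together. The 102-nt exon of Lrrfip2 had 80.4% and 82.5% in infarcted hearts, against 93.3% and 93.8% in uninjured hearts, and the 93-nt exon 85.1% and 86.3% in infarcted hearts, against 94.8% and 95.2% in uninjured hearts. Casd1, an O-acetyltransferase of sialic acids, had its 45-nt exon at 84.6% and 88.9% in infarcted hearts, against 100% in both uninjured hearts. Fam173b, a methyltransferase of the ATP synthase, had its 138-nt exon at 80.0% and 68.4% in infarcted hearts, against 100% and 96.4% in uninjured hearts, with 16 to 54 reads. The 278-nt exon of Fam173b had 71.4% and 64.7% in infarcted hearts, against 100% and 95.7% in uninjured hearts. Also among the 12 were 2 exons of Mical2, described below, and the downstream exon of H2afy.

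**Figure D4:**
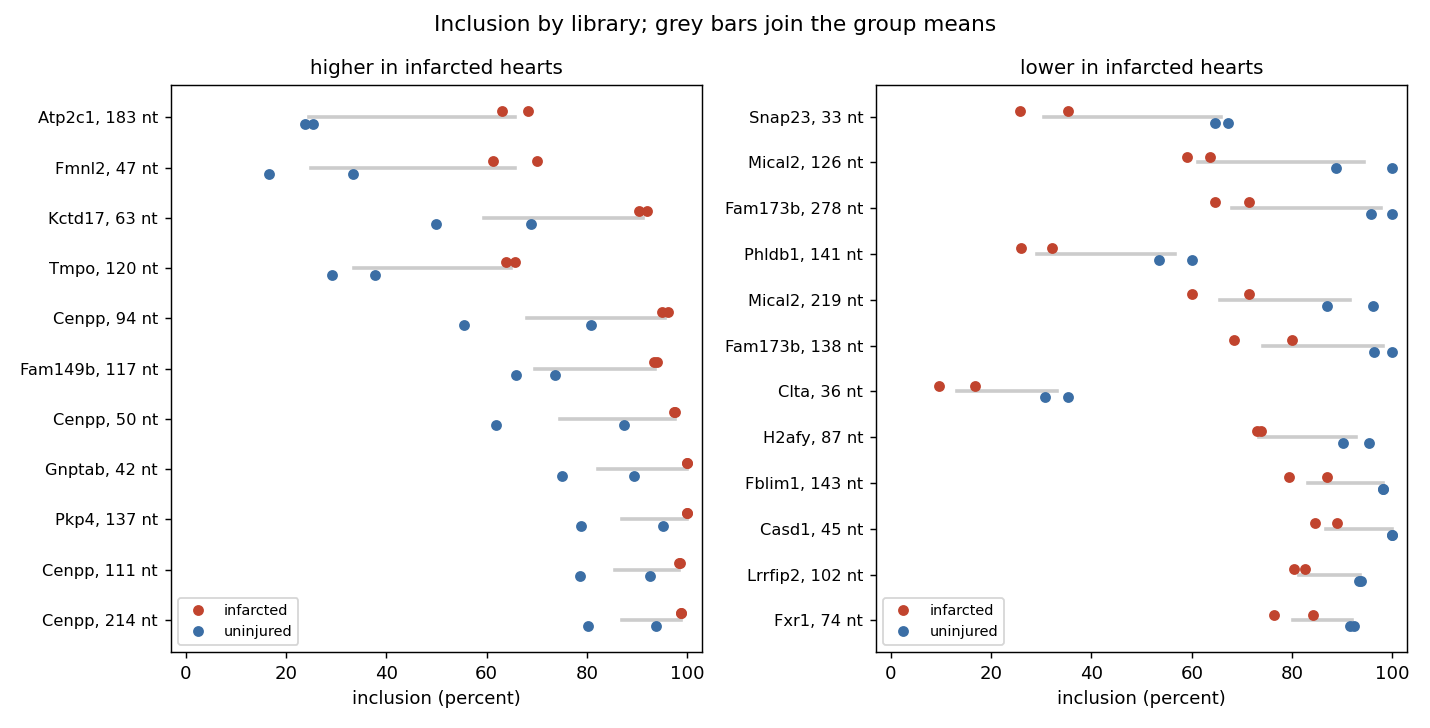
Inclusion level (percent) in each library for 11 of the 12 exons higher and the 12 exons lower in infarcted hearts with the smallest p among those past 10 points without overlap. Red points are the 2 infarcted and blue points the 2 uninjured libraries; grey bars join the group means. The widest differences plotted are 41.1 points in Atp2c1 and -35.4 points in Snap23.

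The well covered exons outside these were looked up after their values had been seen. Smtn, a smooth muscle cytoskeletal gene, had adjacent exons of 165 and 63 nt higher in infarcted hearts. The 165-nt exon of Smtn had 67.2% and 58.9% in infarcted hearts, against 49.6% and 48.4% in uninjured hearts, from at least 294 reads. Vegfa, the vascular growth factor, had a 54-nt exon at 45.1% and 38.5% in infarcted hearts, against 50.9% and 52.7% in uninjured hearts. Sec31a, of the coat of vesicles leaving the endoplasmic reticulum, had a 291-nt exon at 60.6% and 62.5% in infarcted hearts, against 92.5% and 80.4% in uninjured hearts. In Pecam1, the endothelial adhesion molecule, the 57-nt exon had 44.3% and 39.3% in infarcted hearts, against 55.6% and 53.7% in uninjured hearts. In Eef1d, a translation elongation subunit, the 57-nt exon had 23.5% and 22.9% in infarcted hearts, against 34.0% and 32.5% in uninjured hearts. Each of the exons described separated the groups, as the way of picking them required. Their unadjusted p in the edgeR test ran from 0.013 in Sec31a to 0.154 in Vegfa.

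In some genes many exons differed in one direction. In Ttn, the giant elastic protein of the sarcomere, 12 of 20 complex exons were at least 10 points higher in infarcted hearts without overlap, and none was lower by as much. The largest difference, 46.0 points, was in the 81-nt exon chr2:76690114-76690194, with 53.8% and 69.2% in infarcted hearts, against 11.1% and 20% in uninjured hearts, from 10 to 15 reads. The median over the 12 was 76.6% and 89.9% in infarcted hearts, against 51.1% and 63.6% in uninjured hearts. In Lrrfip1, a relative of Lrrfip2, 12 of 13 exons were lower by 10.6 to 23.5 points, with overlap in the other one. The median over those 12 was 51.5% and 62.7% in infarcted hearts, against 77.2% and 70.7% in uninjured hearts. In edgeR the lowest unadjusted p was 0.0187 among the 12 exons of Ttn and 0.0329 among the 12 of Lrrfip1.

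In Mical2, an enzyme that oxidises actin, all 5 complex exons were lower by 15.9 to 33.1 points. The 126-nt exon of Mical2, chr7:119477343-119477468, had 63.6% and 59.0% in infarcted hearts, against 88.8% and 100% in uninjured hearts. The level of Mical2 rose by 1.41 ± 0.20 on the log2 scale (edgeR, adjusted p = 0.000252), and that of Lrrfip1 by 1.25 ± 0.20 (adjusted p = 0.000529). Without uninjured replicate 2 these adjusted p were 0.055 and 0.0545. The level of Ttn was not called (adjusted p = 0.68). Exons of one gene are read from the same mRNAs and are not independent of each other.

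Other runs were shorter. Prodh, which breaks down proline in mitochondria, had 4 of 7 exons higher. Their median was 100% in both infarcted hearts, against 85.3% and 84.4% in uninjured hearts. Sp100, a nuclear body protein, had 4 of 6 exons higher, with a median of 97.5% and 89.5% in infarcted hearts, against 81.2% and 76.7% in uninjured hearts. In Nedd4l, a ubiquitin ligase of ion channels, all 3 were higher, with a median of 40.3% and 34.6% in infarcted hearts, against 18.03% and 24.0% in uninjured hearts. The 3 exons of Rpain, which carries replication protein A to the nucleus, were lower, with a median of 75.0% and 71.4% in infarcted hearts, against 92.9% and 89.5% in uninjured hearts. Epb4.1l2, a membrane skeleton protein, had 3 of 4 exons lower, with a median of 49.2% and 32.5% in infarcted hearts, against 59.2% and 62.2% in uninjured hearts. In Ttll5, a tubulin glutamylase, all 3 were lower, and in Ank3, an ankyrin, 3 of 9. The lowest unadjusted p among these runs was 0.0158, in Prodh, whose exons had as few as 10 reads.

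**Figure D5:**
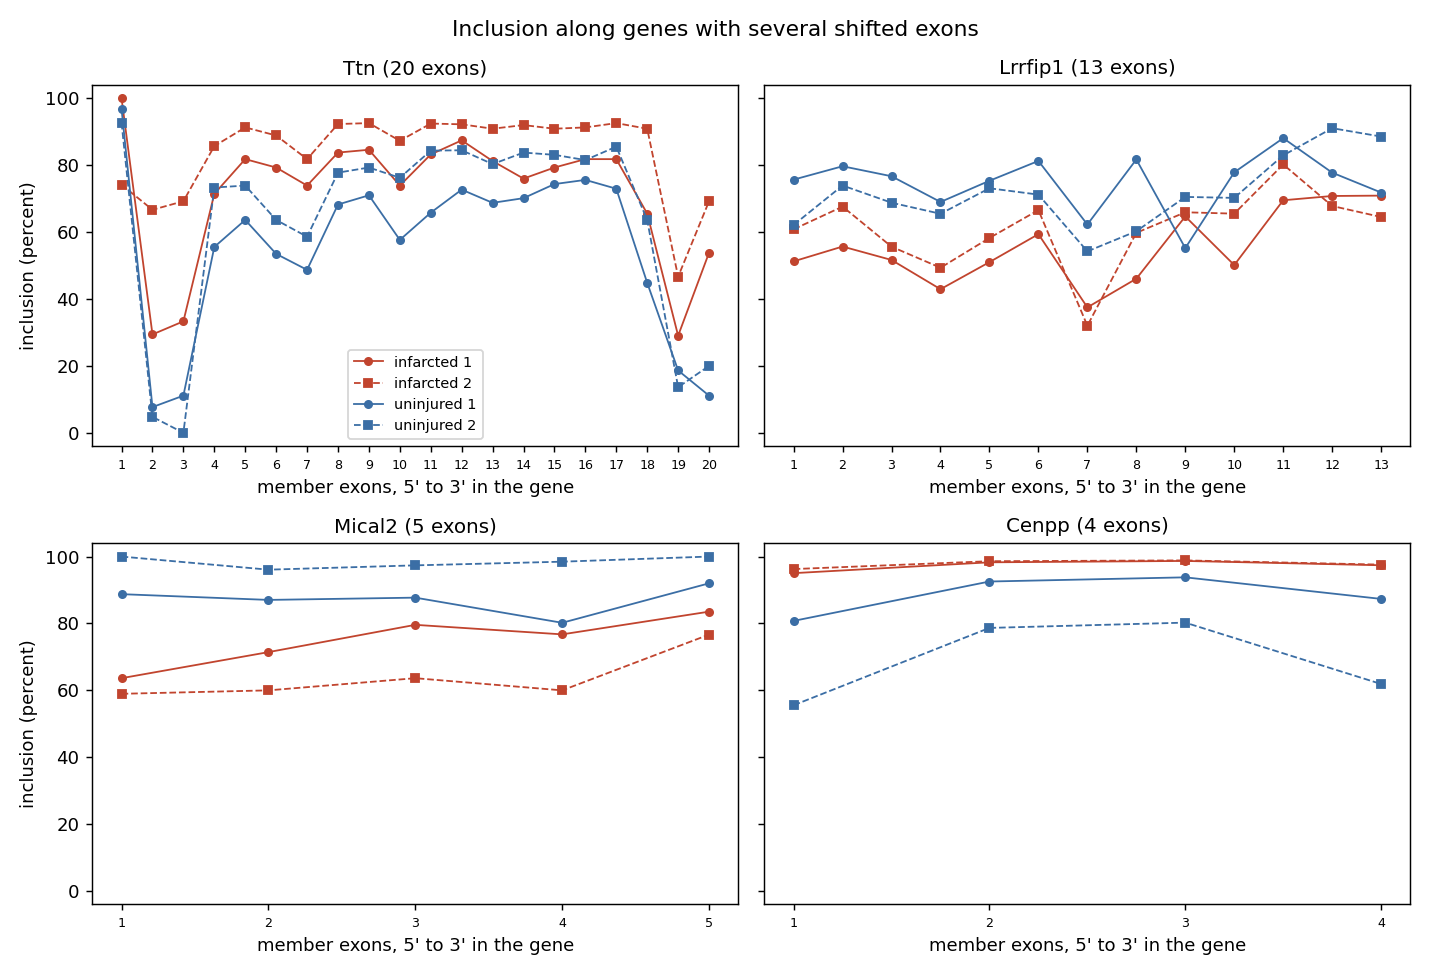
Inclusion level (percent) of the complex exons of Ttn, Lrrfip1, Mical2 and Cenpp in each library, in their order from 5′ to 3′. The exons listed under Cenpp have the lengths and distances of Aspn exons. Red lines are infarcted and blue lines uninjured libraries; in Ttn 12 of 20 exons are at least 10 points higher in the infarcted libraries without overlap, and in Mical2 all 5 are lower.

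The lists of known exon choices and of muscle splicing were drawn up with earlier results of these data in view. Of 40 genes known for exon choice, 27 had a complex exon, 60 in all. Of these 60 exons, 8 were higher and 5 lower by 10 points without overlap (21.7%), beside 16.4% of all complex exons and 11.9% of all events tested. An unadjusted p below 0.05 in edgeR was reached by 17 of the 60 (28.3%). This stood beside 9.64% of all complex exons, 15.3% of those above 200 mean reads, and 6.66% of all events. Several of the 17 are exons of one gene, as in Tpm1, Pkm2 and Slc25a3. With the list drawn up as it was, these shares are no test of it. In the muscle splicing list, 149 exons in 38 of 53 genes held 21 higher and 30 lower (34.2%, beside the same 16.4% and 11.9%), but Ttn and Lrrfip1 gave 24 of the 51. Outside those genes 27 of 116 exons were past 10 points without overlap. The median difference was -0.28 points over the exon choice list and -2.71 points over the muscle list, beside -0.09 points over all events tested.

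Outside the pairs, Fhl1 and Tnnt2 had small differences at high depth. Fhl1, a LIM protein of the sarcomere, had its 187-nt exon at 97.7% and 97.8% in infarcted hearts, against 90.4% and 92.5% in uninjured hearts. Troponin T, Tnnt2, has a 30-nt exon known from the fetal heart, which had 2.21% and 2.64% in infarcted hearts, against 0.37% and 0.54% in uninjured hearts. In both the gap between groups was wider than the distance between mice of a group. The log2 odds ratios were 2.00 ± 0.44 in Fhl1 and 2.28 ± 0.52 in Tnnt2, with unadjusted p of 0.00281 and 0.00336. The 3 complex exons of Camk2d, a calcium and calmodulin kinase, had differences of -8.08, -4.15 and -6.11 points, with overlap in all but the 33-nt exon and the lowest unadjusted p at 0.14.

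The matrix genes gave 4 exons in 3 of 11 listed genes, none past 10 points without overlap and none with an unadjusted p below 0.05, with a median difference of 4.45 points. Postn, periostin of the matrix, had its 84-nt exon at 20.3% and 10.6% in infarcted hearts, against 8.68% and 5.41% in uninjured hearts. These came from 4895 and 2053 reads in infarcted libraries, against 119 and 78 reads in uninjured ones. The 139-nt exon of Fn1, fibronectin, had 98.3% and 99.5% in infarcted hearts, against 100% and 89.7% in uninjured hearts, and the 69-nt exon of Col5a1, a fibrillar collagen, 64.4% and 54.4% in infarcted hearts, against 60.9% and 61.0% in uninjured hearts. Both had overlapping groups, as had the 78-nt exon of Postn.

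The level of the genes that hold complex exons was tested on the raw gene counts with edgeR. Of 938 such genes tested, 87 were called higher and 198 lower in infarcted hearts, where 18.3% of all 13905 genes were called higher and 14.6% lower. Fewer of these genes were called when any one library was left out, and fewest without uninjured replicate 2. The loss over all genes in those fits was not set beside this, so it is not a trait of these genes. Of 196 genes with an exon past 10 points without overlap, 25 were called higher and 32 lower.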

How the data were processed

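RNA of 4 mouse hearts was measured, 2 infarcted (remote area) and 2 uninjured, grouped by the labels. The authors deposited raw counts per gene and, per splicing event and library, the percent inclusion with quality codes and corrected inclusion and exclusion reads; these percent values were used as deposited. Coordinates are on mm9, per the submitters' processing notes; no source used here names the aligner, counter or splicing tool. Splice-site rows that mirror another (1513) were left out, and reads were rounded to whole numbers.

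Members, gene lists and the rule for named exons were chosen with earlier results of these data known. Named are the 12 exons higher and the 12 lower with the smallest p past 10 points without overlap, up to 10 opposite pairs, and up to 8, 8 and 4 exons by p in genes of the exon choice, muscle and matrix lists. Of the 12 higher exons 1 is not reported here.

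Events (at least 10 reads in each library, 5 of each form) and genes (TMM, filterByExpr) were tested with edgeR 4.0.16 in R 4.3.3, limma 3.58.1 and DESeq2 1.42.0, with Benjamini-Hochberg adjustment over all features. The tests were tried on simulated data. SE is the estimate over the root of F. With 2 mice a group, 2 values make each spread. Wilson intervals (95%) cover counting error only, since reads carry no molecular identifiers. Of 962 gene names 950 matched an Ensembl identifier. Exons were matched to GENCODE M21 by structure, and aligned with Biopython 1.88. The mm9 genome was not used here.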

Additional observations from a re-analysis of the deposited data

How the results depend on the processing

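The count of complex exons called was 0 in edgeR and under limma on the logit with 0.5 or 1 read added, DESeq2, cassette exons alone, at least 20 reads, no robust fit, the replicate block and leaving out each library. It was 2 under limma with weights, both exons of Pkm2, and 2 with at least 1 read in each library, where 4512 exons were tested; the cause was not tested. The count of exons past 10 points without overlap, 290, was 178 with at least 20 reads, 579 with at least 1 read, 90 at 20 points and 474 at 5 points, by fewer or more exons passing, and 361 to 418 without one library. Opposite pairs, 12, were 6 with at least 20 reads, 21 with at least 1 read, 1 at 20 points and 18 at 5 points. Without one library they were 10 to 21. For exons and pairs alike, lack of overlap is a looser condition with 1 library in a group, so the counts without one library are not a like measure. Genes called among those with complex exons, 285, were 289 with DESeq2 size factors, 301 with DESeq2, 300 with no filter, 317 under the replicate block and 5 to 276 without one library; the smallest was without uninjured replicate 2.

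Among 58 named exons, the direction of the odds ratio (log2) reversed under 2 settings: Col5a1 was 0.221 without infarcted replicate 2 (-0.37 to 0.221 over the libraries left out) and Fn1 was -1.32 without uninjured replicate 2 (-1.32 to 3.61). No label says that replicate numbers pair the mice, and the same-number deviations correlated at -0.01 over events and 0.011 over complex exons. With the replicate block 0 complex exons were called. Weighted limma without one library and the crossed replicate block, added after the data were seen, called 0. Where a library was left out, the lone mouse of its group was taken to vary like the others. At the minimum of 10 reads a single read is worth 10 points.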
